A study of Bos taurus with 12 samples.

Results

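The data compared here are the receptive endometrium of Simmental heifers on day 7 of the estrous cycle and the same class of tissue on day 3. The 6 arrays, 3 receptive day 7 pools and 3 receptive day 3 pools, were taken by their labels out of the 12 arrays of the series. The other 6 arrays hold non-receptive endometrium, again 3 pools per day, and are used below to ask whether a day change was shared. Endometrium was called receptive when the heifer later became pregnant after transfer of in vivo produced embryos, and each array carries the RNA of 1 pool hybridised to the Affymetrix GeneChip Bovine Genome Array. The tissue was taken before transfer, and the labels give no treatment, genotype or age. They state neither how many heifers stand behind a pool nor whether the same heifers gave both days, so the p-values below measure the spread between pools, which may be partly technical.

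The early luteal phase is the time in which the cow's uterus passes from the estrogen of estrus to the progesterone of the growing corpus luteum. Estrogen is known to drive cell division in uterine epithelium and stroma, whereas progesterone is known to restrain it, to switch on gland secretion and to change the traffic of immune cells. An embryo normally arrives in the uterus during these days and lives on what the glands release.

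All 6 receptive pools carried signal of epithelial markers. The 19 measured members of a list of uterine epithelial markers averaged 9.90 to 10.03 on the log2 scale in the day 3 pools. In the day 7 pools they averaged 10.06 to 10.27, while all named genes averaged 7.71 to 7.75 over the 6 pools. Among the members were the cell adhesion genes EPCAM and CDH1 and the keratins KRT18 and KRT7. PAX8, also a member, had a mean of 6.25. The arrays themselves were alike in median signal, which ran from 6.64 to 6.75, and each held 291 to 455 probe sets at the floor value of 0. Between days the arrays correlated at 0.941 to 0.953 (Pearson, across probe sets), against 0.956 to 0.971 within a day. Measures of RNA quality differed between pools: the 3' probe set of beta-actin exceeded the 5' probe set by 3.11, 1.05 and 1.80 log2 units in day 3 pools 1, 2 and 3, and by 1.25, 0.96 and 0.82 in the day 7 pools. The same gap for the elongation factor EF1A was -1.27, -0.90 and -1.19 on day 3 and -0.33, -0.64 and -1.02 on day 7, and the days overlapped in both gaps. Day 3 pool 1 stood apart in the actin gap, and results are therefore also given without it. The part of RNA quality in the day changes was not tested.

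In the receptive endometrium, 471 of 24016 probe sets passed an adjusted p of 0.05 (limma, Benjamini-Hochberg adjustment over all probe sets). Signal was higher on day 7 for 143 of them, or 0.595% of all probe sets, and lower for 328, or 1.37%. Called changes had a median size of 0.97 on the log2 scale. A change of more than 1 log2 unit was reached by 221 called probe sets, of which 75 were higher and 146 lower, and 60 exceeded 2 log2 units. In every called probe set the 3 day 7 pools lay wholly above or below the 3 day 3 pools, which was also true of 25.2% of all probe sets. Most calls, 408 of 471, had a mean signal above 5 over the 6 receptive pools, and a symbol was known for 256 called probe sets of 240 genes. The lean towards lower signal depended on scaling: 30.4% of the calls were higher on day 7 with the deposited values, 47.9% after quantile normalization (334 calls) and 53.2% with the median of every array set equal (357 calls). Without day 3 pool 1 the test called 9 probe sets. For 468 of the 471, the estimated day change then differed by less than 1.5-fold from the estimate with that pool. The 471 were chosen for a small spread relative to their change with that pool included, so this closeness was no test of size. All 471 kept their direction, which could not reverse because their days do not overlap. Of 57 called genes that were named, 2 kept their call without day 3 pool 1, 4 without day 3 pool 3, 38 without day 3 pool 2, and 19, 9 and 14 without day 7 pool 1, 2 or 3.

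**Figure D1:**
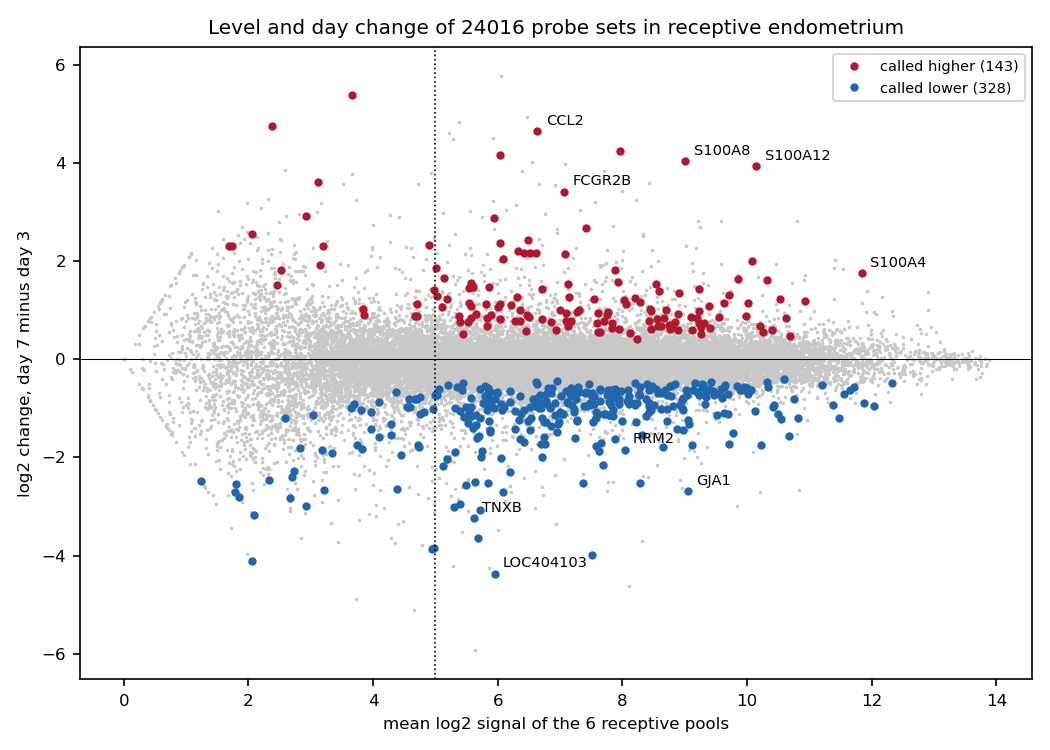
Each point is 1 of 24016 probe sets, with the mean log2 signal of the 6 receptive pools on the horizontal axis and the log2 change, day 7 minus day 3, on the vertical axis. Red points are the 143 probe sets called higher on day 7 and blue points the 328 called lower (limma), and the dotted line marks a mean signal of 5.

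Genes of the innate immune response led the rise. CCL2, which encodes the chemokine that draws monocytes into tissue, had the largest called increase among genes with a mean signal above 5 and no value at the floor. Its signal was 4.63, 4.12 and 4.19 in day 3 pools 1, 2 and 3 and 9.63, 9.85 and 7.40 in the day 7 pools. The day 7 values lay far above day 3, with pool 3 the lowest of the day, and the change was 4.65 ± 0.74 (log2, standard error), a 25.05-fold rise (adjusted p = 0.027, limma). A second CCL2 probe set changed by 4.25 ± 0.65 (adjusted p = 0.025, limma).

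S100A8 and S100A12 encode calcium-binding calgranulins that are abundant in neutrophils and monocytes. S100A8 read 8.16, 7.34 and 5.47 on day 3 against 12.40, 10.91 and 9.78 on day 7, a change of 4.04 ± 0.78 (adjusted p = 0.037, limma). For S100A12 the day 3 pools gave 9.73, 8.49 and 6.31 and the day 7 pools 12.82, 12.34 and 11.21, a change of 3.95 ± 0.76 (adjusted p = 0.038, limma). In both genes pool 3 was the lowest and pool 1 the highest on each day. The days did not overlap, as in every called probe set. S100A4, a further member of the family that is expressed by motile cells and fibroblasts, rose by 1.76 ± 0.34 from 11.44, 10.14 and 11.30 to 12.67, 12.91 and 12.57 (adjusted p = 0.039, limma).

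FCGR2B, the inhibitory Fc receptor for IgG, was among the steadiest of these genes. Its signal moved from 4.67, 5.66 and 5.73 to 8.51, 9.17 and 8.64, a 10.7-fold rise (adjusted p = 0.014, limma), and it was called in 19 of 20 alternative analyses. BPI, which encodes a protein that binds endotoxin and kills Gram-negative bacteria, rose by 2.21 ± 0.38 from 4.83, 5.42 and 5.39 to 7.03, 7.64 and 7.60 (adjusted p = 0.029, limma). ISG12(B), an interferon-stimulated gene, went from 6.38, 2.97 and 2.49 to 8.09, 8.62 and 7.66 (change 4.18 ± 0.87, adjusted p = 0.046, limma). Here day 3 pool 1 was the nearest to the day 7 pools while the other day 3 pools were low, and the change was 5.39 without that pool.

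Cytokine genes with a smaller rise were IL18, an activator of interferon gamma release, CXCL2, an attractant of neutrophils, and TNFSF13, a survival factor of antibody-secreting cells. IL18 rose by 1.55 ± 0.20 (7.39, 8.20 and 7.71 on day 3, 9.10, 9.20 and 9.64 on day 7, adjusted p = 0.015, limma). CXCL2 rose by 1.44 ± 0.25 (adjusted p = 0.030, limma) and TNFSF13 by 0.87 ± 0.15 (adjusted p = 0.030, limma), the latter in 1 of its 2 probe sets. The eosinophil attractant CCL11 was the only member of the cytokine list called lower, at -0.58 ± 0.11 (adjusted p = 0.036, limma). MZB1, a chaperone of plasma cells and marginal zone B cells, rose by 0.81 ± 0.13 from 6.18, 6.42 and 6.32 to 6.93, 7.31 and 7.12 (adjusted p = 0.025, limma).

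Counted over gene lists, each gene being represented by its brightest probe set, the background was 0.874% of 9155 named genes called higher and 1.26% called lower, with a median log2 change of -0.01. Day 7 lay wholly above day 3 in 12.5% of the named genes and wholly below in 15.1%. Of 63 measured cytokine, chemokine and toll-like receptor genes, 4 were called higher and 1 lower, 19 lay wholly above and 3 wholly below, and the median change was 0.35. Among 38 genes of beta-defensins, S100 proteins and mucosal defence, 4 were called higher (S100A8, S100A12, S100A4 and BPI) and none lower, 17 lay wholly above and 1 wholly below, and the median was 0.58. The beta-defensin genes TAP, DEFB4A and EBD, which encode antimicrobial peptides of epithelia, had changes of 4.95, 4.03 and 3.99 but did not pass (adjusted p = 0.14, 0.082 and 0.060, limma), with TAP at 5.0, 3.31 and 3.68 on day 3 and 12.89, 8.08 and 5.87 on day 7. TAP was higher in every day 7 pool than in any day 3 pool, with pool 1 far above the others on day 7.

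Of 39 measured interferon-stimulated genes, 25 lay wholly above and 1 wholly below, with a median change of 0.60. Only ISG12(B) passed the test. ISG15, a ubiquitin-like modifier made under interferon, gave 7.08, 8.30 and 8.29 on day 3 and 11.61, 10.72 and 9.44 on day 7 (change 2.70 ± 0.83, adjusted p = 0.11, limma). The mean signal over the list was 7.50 to 7.75 in the day 3 pools and 8.17 to 8.45 in the day 7 pools, so the receptive days did not overlap. In the non-receptive endometrium the median of the same genes was 0.31 and the days overlapped, but the difference between the groups passed the test for none of them.

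Markers of neutrophils and monocytes moved beside these immune genes. Of 30 measured markers 3 were called higher and none lower, 14 lay wholly above and 1 wholly below, and the median change was 0.86. Their mean signal was 6.57, 6.5 and 6.42 in the day 3 pools and 8.20, 7.49 and 6.93 in the day 7 pools. Among defining markers, the leukocyte antigen PTPRC had a change of -0.66 ± 0.22 and the granule enzymes MPO and ELANE had changes of 0.19 ± 0.35 and -0.24 ± 0.36, none of which passed, while the macrophage marker CD68 gave 2.23 ± 0.59 (adjusted p = 0.077, limma). S100A8, S100A12 and FCGR2B belong to this list as well as to the lists above, so the counts are not independent. In whole tissue, more cells of a type and more RNA per cell cannot be told apart, and the share of leukocytes in these changes was not tested. Markers of T, NK and B cells gave a median of -0.10 over 39 genes, of which 7 lay wholly below and 5 wholly above, and MZB1 and FOXP3 were called higher and none lower.

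**Figure D2:**
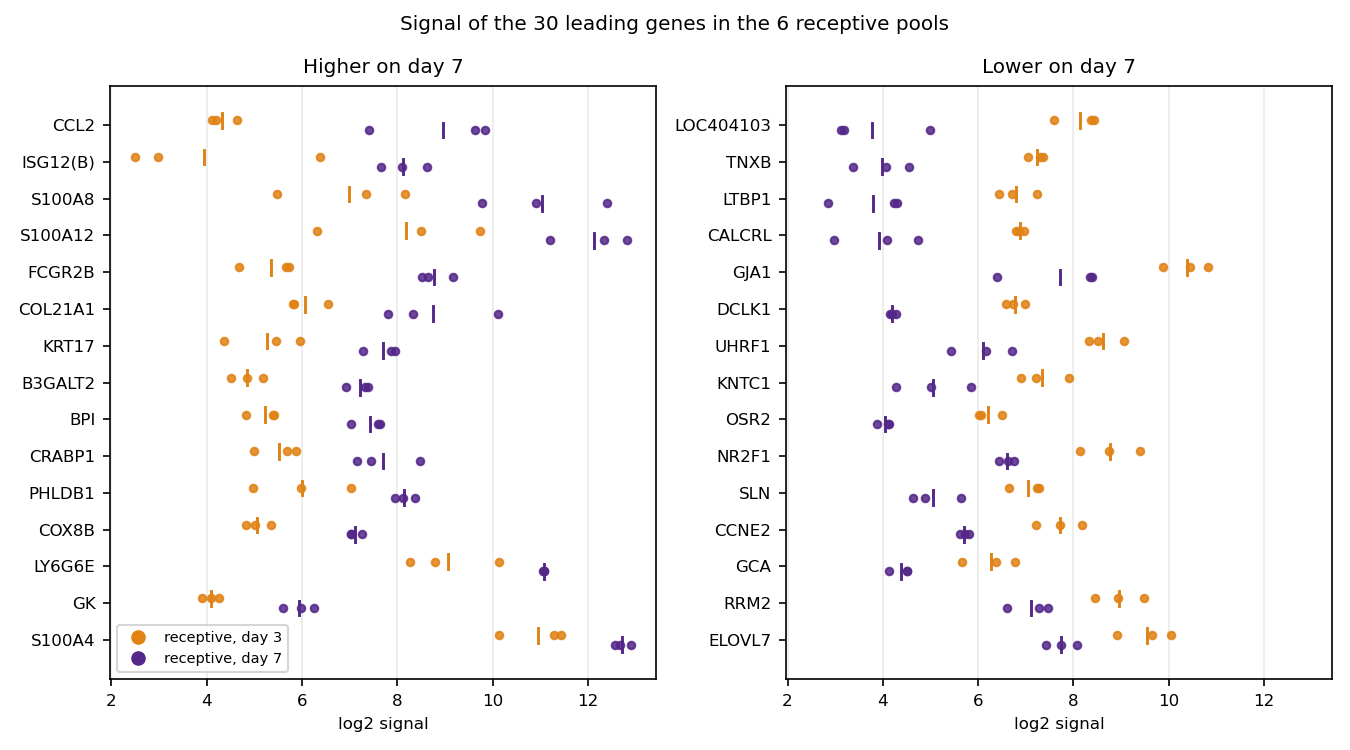
Log2 signal (horizontal axis) of the 15 genes with the largest called rise (left) and the 15 with the largest called fall (right) in receptive endometrium. Dots are the 3 pools of each day, orange for day 3 and purple for day 7, and vertical ticks are the mean of each day. The 30 genes were chosen among those whose days do not overlap.

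A further set of risen genes included a keratin, a surface protein and genes of metabolism, whose cell source was not tested. KRT17, a keratin of stratified and stressed epithelium, rose by 2.44 ± 0.41 from 5.96, 4.36 and 5.46 to 7.96, 7.86 and 7.28 (adjusted p = 0.028, limma). LY6G6E, a member of the Ly6 family of surface proteins, reached 11.06, 11.07 and 11.09 on day 7 against a scattered 8.80, 8.27 and 10.14 on day 3 (change 2.0 ± 0.39, adjusted p = 0.038, limma). Of 13 measured markers of stratified squamous epithelium KRT17 alone passed, 5 lay wholly above, and the list mean was 5.29 to 5.49 over the day 3 pools and 6.33 to 6.40 over the day 7 pools. The basal keratin KRT5 gave 5.27, 4.89 and 5.64 on day 3 and 6.15, 10.06 and 8.50 on day 7 (adjusted p = 0.080, limma), so the pools differed widely on day 7. What tissue outside the endometrium contributed to this signal was not tested.

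COX8B, an isoform of a small subunit of cytochrome c oxidase, was the leading gene that held best across analyses. Its signal of 5.01, 4.82 and 5.35 on day 3 rose to 7.03, 7.25 and 7.03 on day 7, a change of 2.04 ± 0.18 (adjusted p = 0.0061, limma), and it was called in 20 of 20 alternatives. Its 2 probe sets disagree: the other read 10.13, 10.21 and 10.11 on day 3 and 10.07, 10.12 and 10.09 on day 7 (change -0.06 ± 0.10). GK, glycerol kinase, rose by 1.86 ± 0.33 from 4.09, 3.90 and 4.26 to 6.25, 5.98 and 5.61 (adjusted p = 0.032, limma). B3GALT2, a galactosyltransferase that builds glycan chains, rose by 2.36 ± 0.31 from 4.51, 5.19 and 4.84 to 6.92, 7.38 and 7.33 (adjusted p = 0.016, limma), a second of its 4 probe sets rose by 1.65, and the other 2 did not pass. PHLDB1, which encodes a protein of the cell cortex, rose by 2.16 ± 0.42 in 1 of its 2 probe sets (adjusted p = 0.038, limma), from 4.98, 7.02 and 5.98 to 7.96, 8.11 and 8.38, while the other had a change of -0.03 ± 0.21.

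Retinoid genes were called in both directions. The binding protein CRABP1 rose by 2.17 ± 0.35, from 5.0, 5.69 and 5.88 to 7.15, 7.45 and 8.47 (adjusted p = 0.028, limma). ALDH1A1, which oxidises retinal to retinoic acid, rose by 1.22 ± 0.25 from 9.72, 10.22 and 9.82 to 10.98, 11.19 and 11.26 (adjusted p = 0.043, limma), and RDH10, which supplies that retinal, rose by 1.15 ± 0.25 (adjusted p = 0.048, limma). RARRES2, which encodes the chemoattractant chemerin, fell from 9.45, 9.68 and 9.89 to 8.28, 8.44 and 8.57, a change of -1.24 ± 0.21 (adjusted p = 0.029, limma). The other 14 of 18 measured members did not pass, and the median of the list was -0.02. The retinol receptor STRA6 had a change of -2.76 (adjusted p = 0.072, limma).

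Lists of transporters, fatty acid metabolism and antioxidant genes gave 1 call each, beside 0.874% of all named genes called higher. A single call says little about a list as a whole. SLC6A14, an amino acid transporter, rose by 1.36 ± 0.26 (adjusted p = 0.037, limma) as the single call among 35 transporters, 6 of which lay wholly above day 3 and none below. CRAT, carnitine acetyltransferase, rose by 0.95 ± 0.20 (adjusted p = 0.046, limma) among 38 genes of fatty acid metabolism. GPX2, the glutathione peroxidase of epithelia, rose by 1.09 ± 0.17 (adjusted p = 0.025, limma) among 49 antioxidant and immediate early genes. Of 74 genes of oxidative phosphorylation none passed, with 18 wholly above, 1 wholly below and a median of 0.13.

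Genes of DNA replication formed the most uniform group among the falls. All 42 measured members had a log2 change below 0, 34 lay wholly below day 3 on day 7, and 13 were called lower. The median change was -0.78, against -0.01 over all named genes, and -0.74 and -0.70 after quantile normalization and median centring. The mean signal of the list was 8.49, 8.13 and 8.32 on day 3 and 7.38, 7.50 and 7.49 on day 7.

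The called members cover the steps of replication. MCM4, part of the helicase that opens DNA for copying, went down from 10.39, 9.56 and 10.02 to 8.22, 8.38 and 8.13 (change -1.75 ± 0.27, adjusted p = 0.025, limma), and its partners MCM3 and MCM6 changed by -1.44 and -1.33. RRM2, the small subunit of ribonucleotide reductase that makes deoxynucleotides, fell from 9.48, 8.45 and 8.94 to 7.28, 7.47 and 6.6 (change -1.84 ± 0.37, adjusted p = 0.041, limma). In both genes day 3 pool 1 was the highest pool of its day. All day 7 pools were lower than every day 3 pool, as in every probe set called lower. LIG1, which joins nascent strands, changed by -1.12 ± 0.14 (adjusted p = 0.014, limma), with -1.03 in another called probe set and -0.23 in one that did not pass. The polymerase subunit gene POLE2 changed by -1.29 ± 0.23 (adjusted p = 0.032, limma) and UNG, which removes uracil from DNA, by -1.25 ± 0.19 (adjusted p = 0.024, limma). Also called lower were the sliding clamp PCNA (-1.06), the origin genes CDC6 (-1.05) and ORC5 (-0.65), the polymerase alpha subunit POLA2 (-0.99), and the chromatin assembly subunits CHAF1A (-1.16) and CHAF1B (-1.35). With the test restricted to probe sets of mean signal above 5, 22 members were called lower. Without day 3 pool 1 none was, while the median stayed at -0.71.

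Cell cycle genes were also mostly lower on day 7, with fewer calls. Of 45 measured mitosis and cell cycle genes 42 were below 0, 24 lay wholly below, and 3 passed. CCNE2, the cyclin that brings cells into S phase, fell from 8.19, 7.22 and 7.72 to 5.80, 5.62 and 5.72 (change -2.0 ± 0.30, adjusted p = 0.024, limma), and its partner kinase CDK2 from 8.06, 7.90 and 7.71 to 6.87, 6.98 and 6.99 (change -0.94 ± 0.12, adjusted p = 0.015, limma). STMN1, which destabilises microtubules, changed by -1.20 ± 0.25 (adjusted p = 0.047, limma). KNTC1, a kinetochore gene outside the list, fell by 2.29 on the log2 scale, from 7.90, 6.91 and 7.21 to 5.01, 5.86 and 4.27 (adjusted p = 0.036, limma). The list median was -0.63, and -0.39 without day 3 pool 1, whose mean over these genes was 8.20 against 7.46 and 7.75 in the other day 3 pools.

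The chromatin list held its largest fall in a gene of DNA methylation maintenance. UHRF1, which reads newly replicated, partly methylated DNA and brings DNMT1 to it, fell in both of its probe sets, by -2.53 ± 0.44 and -2.53 ± 0.43 (adjusted p = 0.031 and 0.029, limma), the first from 9.06, 8.33 and 8.51 to 6.16, 6.71 and 5.44. DNMT1 itself, the maintenance methyltransferase, fell from 9.61, 9.24 and 9.24 to 8.47, 8.67 and 8.57 (change -0.79 ± 0.17, adjusted p = 0.046, limma). The de novo methyltransferase genes DNMT3A and DNMT3B had changes of -0.60 ± 0.15 (adjusted p = 0.069, limma) and -0.02 ± 0.23. The histone deacetylase HDAC2 (-0.66 ± 0.12) and the chromatin protein HMGB1 (-0.55 ± 0.10) were also called, at adjusted p = 0.035 and 0.036 (limma). For HDAC2 the other probe sets had changes of -0.65 and -0.14 and did not pass. In all, 4 of 26 measured genes were called lower and none higher, 18 lay wholly below, and the median was -0.37.

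**Figure D3:**
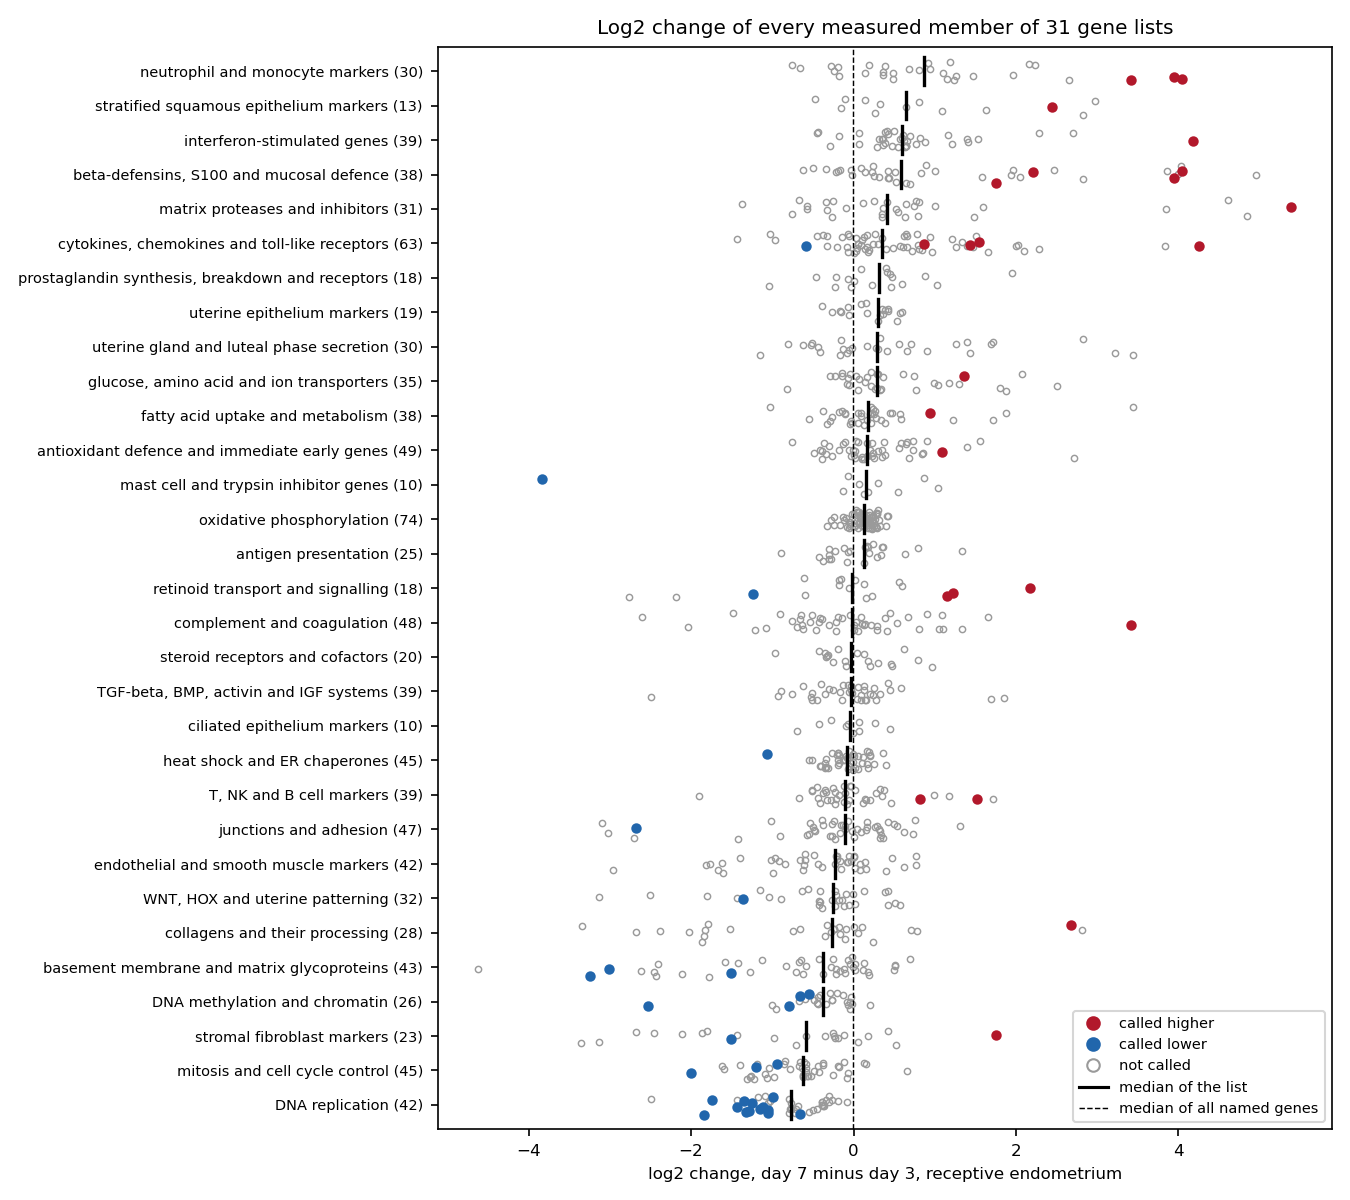
Log2 change, day 7 minus day 3, in receptive endometrium (horizontal axis) for every measured member of 31 gene lists, with the number of measured genes in brackets. Red and blue dots are genes called higher or lower (limma), open dots were not called, black bars are list medians and the dashed line is the median of all named genes. All 42 DNA replication genes lie left of 0.

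Genes of the stroma and its matrix were among the largest called falls. TNXB, the matrix glycoprotein tenascin X, fell from 7.30, 7.04 and 7.37 to 4.55, 3.37 and 4.06 (change -3.24 ± 0.54, adjusted p = 0.028, limma). LTBP1, which tethers latent TGF-beta to the matrix, fell from 7.23, 6.45 and 6.71 to 4.24, 2.84 and 4.29 (change -3.01 ± 0.40, adjusted p = 0.016, limma). FBLN1, a matrix protein of fibroblasts, fell from 10.55, 10.64 and 10.42 to 8.91, 8.88 and 9.29 (change -1.51 ± 0.30, adjusted p = 0.039, limma). Day 7 pools were lower than every day 3 pool in each, as in every probe set called lower.

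These were the 3 calls among 43 basement membrane and matrix glycoprotein genes, 15 of which lay wholly below and 2 wholly above, with a median of -0.37. SPARCL1, a matrix-associated protein, read 10.23, 10.57 and 10.43 on day 3 and 5.96, 5.69 and 5.72 on day 7, a 24.6-fold lower signal with little spread, yet missed the threshold narrowly (change -4.62 ± 1.0, adjusted p = 0.0501, limma). The fit shares its estimate of spread with the non-receptive pools, and SPARCL1 was among the genes called when receptive pools were fitted alone. COL3A1, the fibrillar collagen of soft tissue, behaved likewise at 12.23, 11.88 and 12.39 against 9.21, 9.78 and 9.49 (change -2.67 ± 0.62, adjusted p = 0.058, limma). Of 28 collagen genes 12 lay wholly below and 3 wholly above, the median was -0.26, and the only call was upwards: COL21A1, a collagen associated with fibrils, rose by 2.68 ± 0.52 from 5.82, 6.54 and 5.84 to 7.81, 10.12 and 8.32 (adjusted p = 0.037, limma).

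Matrix proteases and their inhibitors leaned the other way, with 8 of 31 members wholly above, 1 wholly below and a median of 0.41. MMP9, gelatinase B, was listed at the floor of 0 in day 3 pools 1 and 2 and at 2.90 in pool 3, and read 6.49, 7.00 and 5.58 on day 7 (adjusted p = 0.036, limma). The size of its change is not given because of the floor values. The collagenase MMP13 gave 2.24, 4.23 and 2.42 on day 3 and 8.39, 9.60 and 5.42 on day 7 but did not pass (adjusted p = 0.051, limma).

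Markers of stromal fibroblasts gave a mean signal of 7.88, 7.87 and 7.83 on day 3 and 6.85, 7.25 and 6.74 on day 7. Of 23 measured markers 11 lay wholly below and 1 above, and the median was -0.58, and -0.54 and -0.51 after quantile normalization and median centring. The test called 1 lower, FBLN1, and 1 higher, S100A4. Of 42 endothelial and smooth muscle markers 15 lay wholly below and 2 above (median -0.22), with no call. Whether the pools held a smaller share of stroma on day 7 was not tested.

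Several genes with the largest called falls code for signalling and cell contact. CALCRL, the receptor for adrenomedullin and calcitonin gene-related peptide, fell from 6.96, 6.8 and 6.87 to 4.08, 4.73 and 2.97 (change -2.95 ± 0.62, adjusted p = 0.046, limma), and its other probe set had a change of -1.24 that did not pass. GJA1, connexin 43, the gap junction protein of stroma and muscle, fell from 10.83, 9.89 and 10.46 to 8.35, 8.39 and 6.40 (change -2.68 ± 0.52, adjusted p = 0.039, limma), while its other probe set had a change of -0.36 that did not pass. GJA1 was the single call among 47 junction and adhesion genes, whose median was -0.11. AXIN2, a feedback target of WNT signalling, fell by 1.36 on the log2 scale (adjusted p = 0.033, limma) as the single call among 32 WNT, HOX and patterning genes, 13 of which lay wholly below and 2 above, with a median of -0.25.

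The transcription factor genes OSR2 and NR2F1 fell as well. OSR2, a zinc finger factor of mesenchyme, went from 6.03, 6.07 and 6.51 to 4.13, 4.10 and 3.88 (change -2.17 ± 0.36, adjusted p = 0.028, limma), while its other probe sets had changes of -0.09 and -0.98 and did not pass. NR2F1, an orphan nuclear receptor, went from 9.4, 8.13 and 8.75 to 6.43, 6.63 and 6.76 (change -2.15 ± 0.39, adjusted p = 0.035, limma). DCLK1, a kinase bound to microtubules, showed little spread at 6.74, 6.58 and 6.98 against 4.15, 4.27 and 4.19 (change -2.56 ± 0.50, adjusted p = 0.039, limma). In each of these genes, as in every probe set called lower, every day 7 pool was below every day 3 pool.

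The largest called fall among genes with a mean signal above 5 and no value at the floor belonged to a probe set annotated to LOC404103, at 8.43, 8.38 and 7.59 on day 3 and 5.0, 3.12 and 3.18 on day 7 (change -4.37 ± 0.73, adjusted p = 0.028, limma). PTI, the gene of the pancreatic trypsin inhibitor, fell by 3.84 on the log2 scale on a probe set whose identifier differs from it only in the suffix (adjusted p = 0.027, limma), so these values may not be independent. A second LOC404103 probe set read 7.20, 7.04 and 7.26 on day 3 and 7.04, 7.32 and 7.69 on day 7 and did not pass (change 0.18 ± 0.17). The probe sets of LOC404103 thus disagree. Among the other leading falls were the muscle calcium pump regulator SLN (-2.0 ± 0.41), the calcium-binding protein gene GCA (-1.90 ± 0.28) and the fatty acid elongase gene ELOVL7 (-1.80 ± 0.27), at adjusted p = 0.044, 0.024 and 0.024 (limma). The other GCA probe sets had changes of -0.29 and -0.25 and did not pass. HSPB8, a small heat shock protein, was the single call among 45 chaperone genes at -1.07 ± 0.17 (adjusted p = 0.027, limma).

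No member of the lists of steroid receptors and cofactors or of gland secretion passed the test over all probe sets on its brightest probe set. ESR1, the estrogen receptor alpha, gave 3.83, 4.44 and 4.39 on day 3 and 3.29, 3.62 and 2.85 on day 7 (change -0.97 ± 0.26, adjusted p = 0.085, limma), with days that did not overlap but signals below 5. PGR, the progesterone receptor, gave 4.63, 3.81 and 4.6 against 4.51, 4.33 and 3.21 and overlapped (change -0.33 ± 0.51). OXTR, the oxytocin receptor, had a change of -0.34 ± 0.50, with day 7 pool 3 at 8.88 and every other receptive pool above 10. Of 20 steroid receptor and cofactor genes, 30 genes of gland and luteal phase secretion, 18 prostaglandin genes and 25 antigen presentation genes, none passed. In the secretion list 10 lay wholly above and 4 wholly below, with a median of 0.29, and 3 were called higher and 2 lower when only probe sets of mean signal above 5 were tested. SPP1, osteopontin, an adhesion protein of uterine secretions, gave 9.91, 8.52 and 9.73 on day 3 and 12.00, 12.93 and 11.72 on day 7 and missed narrowly (change 2.83 ± 0.62, adjusted p = 0.0512, limma).

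**Figure D4:**
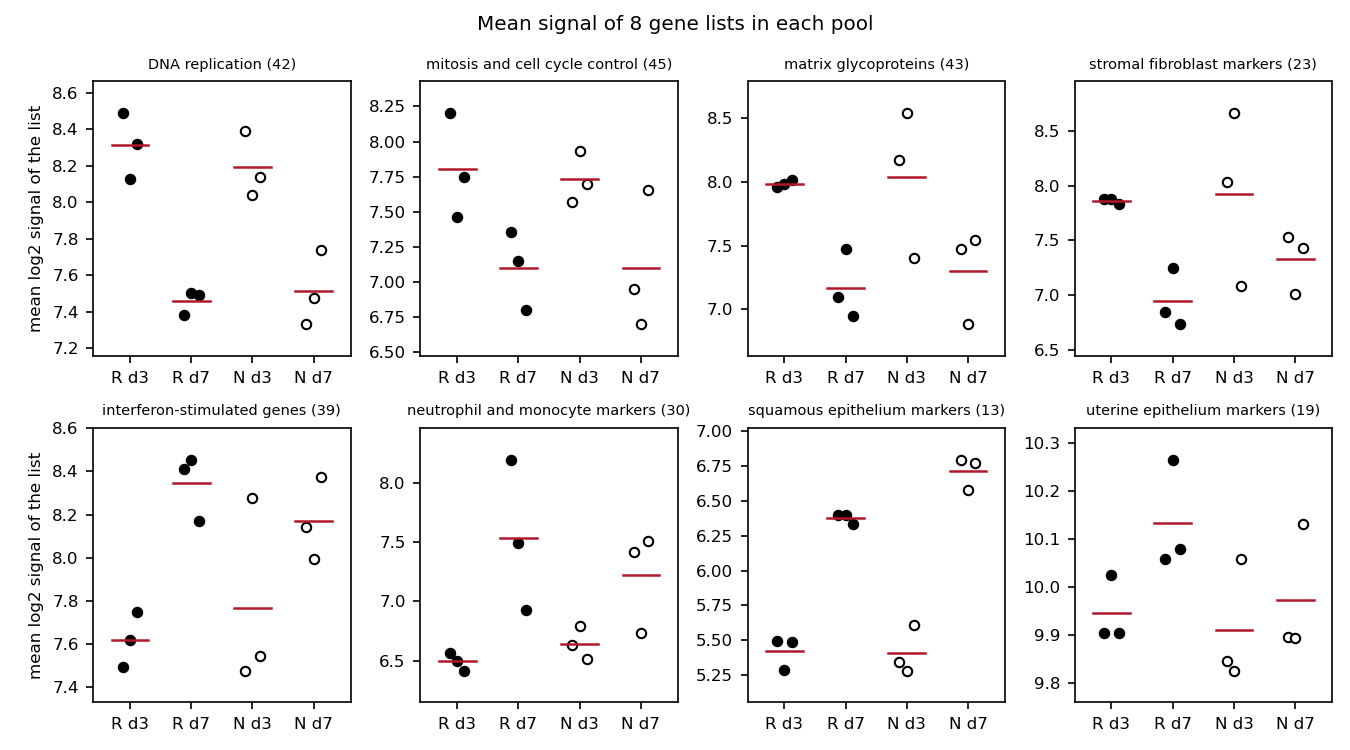
Mean log2 signal (vertical axis, separate scale in each panel) of 8 gene lists in each of the 12 pools, filled for receptive (R) and open for non-receptive (N) endometrium on day 3 (d3) and day 7 (d7). Red bars are group means. The receptive days do not overlap in any of the 8 panels.

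The non-receptive endometrium was set beside these results to ask whether the day change depended on receptivity. Of the 471 called probe sets 458 changed in the same direction there and 13 in the opposite one. Also called there were 224 of the 471, beside 596 of all 24016 probe sets. All 6 day 7 pools were separated from all 6 day 3 pools by 384 of the 471. The shares of all probe sets with the same direction or full separation were not computed. The counts therefore cannot say whether sharing was more common among the 471 than among other probe sets. The 471 were chosen with a spread estimated partly from these non-receptive pools, so the counts are given as description. The difference between the day changes, tested as an interaction, passed for 0 of 24016 probe sets (0.0%, limma), with 813 at an unadjusted p under 0.05 and a smallest adjusted p of 0.75. A difference between receptive and non-receptive endometrium in how genes moved from day 3 to day 7 was thus not detectable with 3 pools per group. The groups also differed in RNA quality measures. The actin gap was 0.02 to 0.93 log2 units in the non-receptive pools and 0.82 to 3.11 in the receptive pools. For EF1A the gap was -0.92 to -0.33 and -1.27 to -0.33. The part of RNA quality in the group comparison was not tested.

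Given for description are the 6 genes with the smallest unadjusted p of that difference among those with a mean signal above 5 and no value at the floor. CA13, a carbonic anhydrase, was at 7.46, 6.44 and 8.05 on day 3 and 7.56, 7.47 and 7.28 on day 7 in receptive endometrium, a change of 0.12 ± 0.32. Its non-receptive pools moved from 5.17, 5.35 and 5.26 to 8.0, 7.93 and 7.64, a change of 2.6. The difference had an unadjusted p of 0.00031 and an adjusted p of 0.75 (limma). F3, tissue factor, the starter of blood clotting, changed by -0.19 ± 0.29 in receptive and by 1.94 in non-receptive endometrium (unadjusted p = 0.00047, limma). GNLY, granulysin of cytotoxic lymphocytes, changed by -0.51 ± 0.44 and -3.64 (unadjusted p = 0.00056, limma). DLAT, a subunit of pyruvate dehydrogenase, FMO5, a flavin monooxygenase, and ABCD3, a peroxisomal transporter, differed by -0.64, -0.92 and -0.69 between the groups. These values are from the probe set of each gene with the smallest p. The receptive change was -0.57 on that probe set of FMO5 and -0.01, -0.09, -0.38 and -0.51 on its others. For DLAT it was -0.47, against -0.18 and -0.53 on its others, and the other CA13 probe set gave -0.10. The receptive changes of these 6 genes did not pass either.

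FOXP3, the master factor of regulatory T cells, is named as a called member of the T, NK and B cell list, and its mean signal below 5 kept it out of these 6 genes. Its receptive signal rose from 1.93, 1.65 and 1.52 to 3.15, 3.30 and 3.21 (change 1.52 ± 0.21, adjusted p = 0.018, limma), while the non-receptive pools gave 3.08, 3.64 and 3.97 on day 3 and 2.88, 2.91 and 3.19 on day 7. The difference had an unadjusted p of 3.7e-05 and an adjusted p of 0.75 (limma). All 12 values lay under the mean level of 5 that was given weight.

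**Figure D5:**
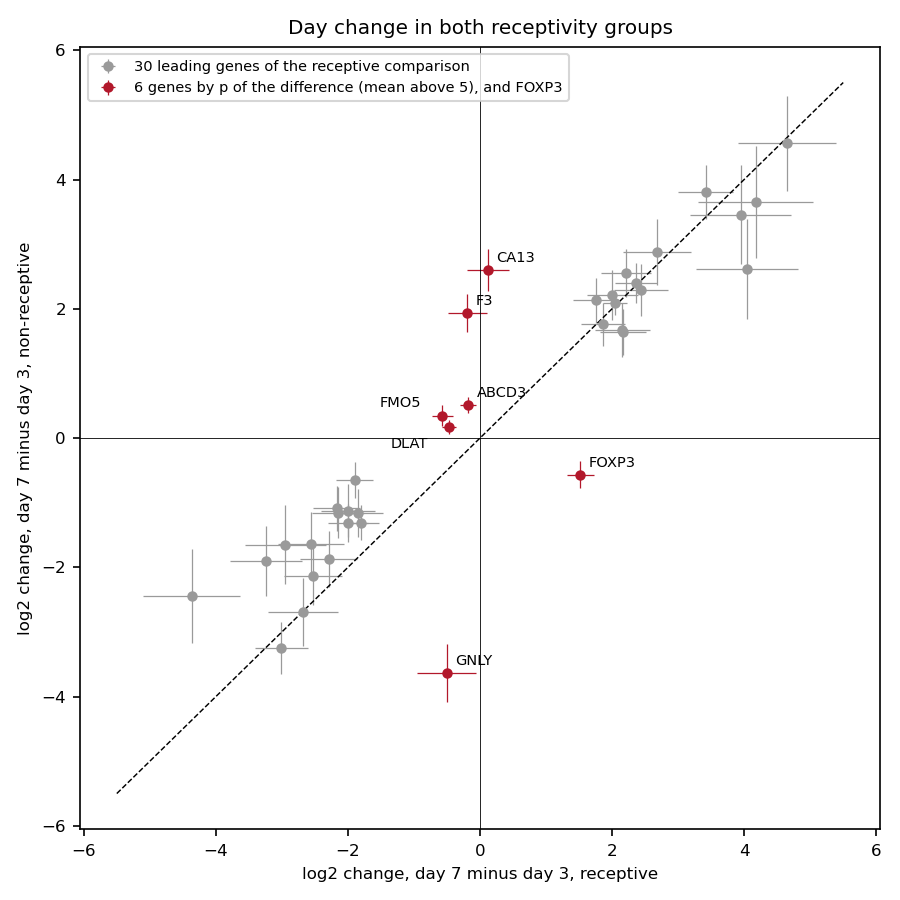
Log2 change, day 7 minus day 3, in receptive (horizontal axis) and non-receptive endometrium (vertical axis), with standard errors from the fit. Grey points are the 30 leading genes of the receptive comparison, red points are FOXP3 and the 6 genes with the smallest p of the difference among those of mean signal above 5 with no value at the floor, and the dashed line marks equal changes.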

How the data were processed

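The 12 arrays of RNA pools were analysed from the deposited series matrix. The authors deposited log2 signals per probe set with a floor of 0. Their processing notes name Affymetrix Expression Console, PLIER and GCOS 1.1.1, and no source used here gives further scaling. The values were used as deposited, without 112 control probe sets, which left 24016, of which 13292 had 1 gene symbol, 86 several and 10638 none. Symbols came from the platform annotation (9155 genes, 9141 current in RefSeq). Groups followed the labels. All 12 arrays entered 1 linear model with a mean per group (limma 3.58.1, R 4.3.3), so that the receptive comparison uses the spread of all groups. P-values were adjusted by Benjamini-Hochberg over all probe sets, with a threshold of 0.05. The procedure was tested on simulated data with known changes.

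Named genes were the 15 with the largest called change in each direction (mean of the 6 receptive pools above 5, no value at the floor, no overlap), up to 4 called members of each list or, with no call, 2 others, the receptors ESR1, PGR and OXTR, and, for the difference, the 6 with the smallest p among genes of mean signal above 5 with no value at the floor. Other genes were chosen after their values were seen. The members and the 31 lists (1462 entries, 1070 matched, 30 by another symbol) were chosen with earlier results of these data known. The number of arrays limits the precision. Alternatives were quantile normalization, median centring, a trended robust variance, array weights, filters on low signal and on floor values, a replicate block, receptive pools alone, and leaving out each pool. A planned search of promoters for motifs was not run because no promoter sequences were used here.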

Additional observations from a re-analysis of the deposited data

How the results depend on the processing

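With 3 pools per group, the count of calls depended on the test. The 57 called genes named in the text kept their call in 701 of 1136 re-computations that gave a value. Their direction was the same in all 1136, but this was no test of it. Leaving out a pool could not reverse a change between days that do not overlap. Another variance estimate or filter leaves the change itself as it is. The 471 calls (143 higher, 328 lower) became 334 (160, 174) after quantile normalization, 357 (190, 167) after median centring, 1071 (322, 749) with a trended robust variance, 1275 (379, 896) with array weights, 1064 (327, 737) among probe sets of mean signal above 5, 705 (209, 496) among those never at the floor, and 37 (8, 29; 19 shared with the 471) in receptive pools fitted alone. Leaving out 1 pool gave 9 to 615 calls (6 to 168 higher, 3 to 447 lower). Counts fell by more than 1.5 times without receptive day 3 pool 1 (9) or 3 (16), without receptive day 7 pool 1 (140), 2 (54) or 3 (102), without non-receptive day 3 pool 1 (178) or 2 (267), and without non-receptive day 7 pool 1 (186). The genes called without receptive day 3 pool 1 were COX8B, GCHFR, ISG12(B), PLPP3 and RPUSD3. The difference between the groups gave 0 to 2 calls when a pool was left out: 2 without receptive day 3 pool 2 (CA13 and an unnamed probe set), 1 without receptive day 3 pool 3 (unnamed) and 2 without non-receptive day 7 pool 2 (G6PC1 and an unnamed probe set). List medians moved beyond their spread within a day in 24 of 620 re-computations. The cause was not tested.

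Pool numbers are shared by the days. Deviations of same-numbered receptive pools correlated weakly, at 0.136, 0.0519 and 0.122. The labels do not state a pairing, so the numbers were not taken to pair the samples. Each pool did correlate best with its own number, a hint from the data only. With the replicate block the test called 155 probe sets, 60 higher and 95 lower, and the difference 0. Of the 57 called genes named, 28 kept their call under the block and 8 in receptive pools fitted alone.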

Other observations

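The smallest p of the receptive comparison belonged to a probe set without a gene symbol. It was listed at 0 in all 3 receptive day 3 pools and read 4.57, 4.74 and 4.98 in the day 7 pools. The non-receptive pools showed the same, with 0 on day 3 in each and 4.78, 5.19 and 5.14 on day 7. No fold change is given against the floor. Values at the floor show no spread, so the rank of this probe set by p rests partly on them.

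Fitting the 6 receptive pools alone called genes that the shared fit did not. Among them were DUSP12, a dual-specificity phosphatase, at 8.07, 8.03 and 7.88 on day 3 and 4.51, 3.68 and 3.03 on day 7, IGFBP7, a secreted protein that binds insulin-like growth factors, at 9.31, 9.02 and 8.72 and 6.31, 6.95 and 6.31, and EMCN, an endothelial surface sialomucin, at 9.49, 9.24 and 9.51 and 7.89, 7.59 and 7.76. In the shared fit their adjusted p was 0.052, 0.084 and 0.11 (limma). JAG1, a ligand of Notch, was called in both, at 5.58, 5.53 and 5.77 on day 3 and 4.04, 3.83 and 3.67 on day 7.

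PLPP3, a lipid phosphate phosphatase, rose from 1.97, 1.73 and 2.39 to 4.19, 4.69 and 4.17 on 1 probe set. That probe set was called in 19 of the 19 alternatives that tested it, although its signal stayed under 5. Of the 3 PLPP3 probe sets only 2 changed in this direction. GCHFR, the feedback regulator of GTP cyclohydrolase I, rose from 7.49, 7.19 and 7.18 to 8.25, 8.17 and 8.32. RPUSD3, a mitochondrial pseudouridine synthase, fell from 7.87, 8.04 and 8.09 to 6.96, 7.19 and 7.15, and only 2 of its 3 probe sets changed in this direction. The last 2 genes were each called in 18 of 20 alternatives.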
